A study of Homo sapiens with 6 samples.

Results

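The genes for EGFR, its ligands and related receptor kinases form a set of 10 among the 17064 genes measured in MDA-MB-231, a triple-negative line of human breast cancer cells, and they were chosen by gene symbol. The receptors in the set are EGFR, ERBB3 and MET, and the ligands are AREG, EREG, HBEGF, TGFA, EPGN, BTC and NRG1. RNA was sequenced from cells that carried an empty vector (vector 1 and vector 2, from separate transductions), from cells edited in CDC42BPA, which encodes MRCKα (MRCKα KO, 1 library), from cells edited in CDC42BPB, which encodes MRCKβ (MRCKβ KO, 1 library), and from cells edited in both genes (DKO 1 and DKO 2, made with different guides). Guides were delivered with lentiCRISPRv2 and cells were selected with either puromycin or blasticidin. The edited cells were pools and not clones, so a library can hold cells with an intact gene, although the study reports a very efficient loss of the proteins. The comparisons ask which RNAs differ when these kinases, which act on the actin cytoskeleton, are targeted singly or together.

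EGFR and its relatives ERBB2, ERBB3 and ERBB4 are receptor tyrosine kinases that pair up after a ligand binds, and they signal through adaptors to RAS and ERK. Their ligands are made as membrane-bound precursors, which proteases such as ADAM17 cut to free the active growth factor. EGFR is often abundant in triple-negative breast cancer, and several of its ligands are themselves transcribed in response to ERK activity.

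Each gene has an expected count, the number of reads estimated to come from it, and an FPKM value, in which reads are scaled to transcript length and library total. Levels of different genes are compared only in FPKM. Library totals of expected counts were 10657857 for vector 1 and 10349898 for vector 2, 10368422 for MRCKα KO and 10632556 for MRCKβ KO, and 10461053 for DKO 1 and 10510366 for DKO 2.

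The targeted genes came first. CDC42BPA was at 36.4 FPKM in vector 1 and 23.3 in vector 2, 29.4 in MRCKα KO and 34.9 in MRCKβ KO, and 28.3 in DKO 1 and 26.1 in DKO 2. The MRCKα KO and DKO libraries lay between the vector libraries, and the log2 fold change of DKO over vector was -0.16 ± 0.22 (SE), or 0.21 without vector 1. CDC42BPB was at 30.3 FPKM in vector 1 and 29.1 in vector 2, 27.3 in MRCKα KO and 25.7 in MRCKβ KO, and 23.4 in DKO 1 and 23.5 in DKO 2. Every edited library lay below both vector libraries, that edited in CDC42BPA alone included, and the log2 fold change in DKO was -0.37 ± 0.11 (SE). An RNA level does not report whether a guide cut, because edited transcripts are still counted.

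Vector 2 and, less so, DKO 2 stood apart from the other libraries. The spread between libraries was measured over 11055 genes with a mean count of at least 50, as a chi-square per degree of freedom that is near 1 when libraries differ by counting error alone. It was 25.5 between vector 1 and vector 2 and 11.8 between DKO 1 and DKO 2, but 4.52 between vector 1 and MRCKβ KO, which were the closest pair. Vector 1 and DKO 1 gave 6.92. Of 11698 genes averaging at least 1 FPKM, 486 were at least 2-fold apart between the vector libraries, against 269 of 11716 between the DKO libraries. Values are therefore given by library, and a fold change in DKO whose sign turned without 1 library is also given without it.

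Markers were checked against the epithelial label. All 5 epithelial markers had at least 10 counts in every library, with summed levels of 461 FPKM in vector 1 and 403 in vector 2, 403 in MRCKα KO and 454 in MRCKβ KO, and 405 in DKO 1 and 314 in DKO 2, of which KRT8 gave 220, 187, 172, 205, 187 and 138. All 4 markers of a mesenchymal-like state were present too, and their sums in the same order were 1605, 2097, 1587, 1704, 1598 and 1958 FPKM, nearly all of it VIM. Vector 2 and DKO 2 held the highest sums, which follow VIM, and DKO 2 the lowest epithelial sum. Among single markers, the epithelial KRT19, at 60.4, 28.85, 62.2, 57.5, 48.1 and 21.5 FPKM, was lowest in vector 2 and DKO 2. CDH2, of the mesenchymal-like state, was highest in vector 2 at 0.65 FPKM, on 11 to 26 counts per library. In DKO 2 CDH2 was at 0.32, below vector 1 at 0.36. ZEB1, of the same state, was at 21.6 to 24.4 FPKM, highest in DKO 2 and lowest in vector 1. Other markers differed from this at least in part. FN1, at 38.1, 20.1, 30.0, 39.6, 32.8 and 45.7 FPKM, was lowest in vector 2. The epithelial CDH1 was highest in vector 2 at 0.64 FPKM, on 13 to 33 counts per library. KRT18, at 177, 184, 169, 189, 167 and 153 FPKM, was lowest in DKO 2 but higher in vector 2 than in vector 1. EPCAM, at 2.62, 2.47, 0.73, 1.86, 2.17 and 1.82 FPKM on 13 to 48 counts, was lowest in MRCKα KO. The sums for hormone receptors and HER2 were 16.7, 14.7, 14.0, 15.9, 15.1 and 14.3 FPKM, with ERBB2 the most abundant at 13.2 to 16.2 FPKM. Their part in the values of the ligands and receptors was not tested.

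Markers of other cell types were low. The 6 fibroblast markers summed to 10.4, 3.73, 4.44, 7.10, 5.87 and 3.81 FPKM in the same order, with PDGFRB, which cancer lines also express, at 1.14 to 5.90 FPKM. COL1A1 was above PDGFRB in vector 2 (2.27 against 1.35 FPKM) and in DKO 2 (2.56 against 1.14). The 3 leukocyte markers in the table summed to 0.47 to 2.17 FPKM, with CD14 the highest in 4 libraries and PTPRC in vector 2 and MRCKα KO, and the endothelial markers to 0.96 to 1.94 FPKM with PECAM1 on top. Markers of HEK293T, the cells that produced the virus, summed to 0.80 FPKM in MRCKα KO and 0.08 in DKO 1 and to 0 in the other 4 libraries, with NEFM on top and NEFL absent from the table. The part of these low levels in the values below was not tested. Because RNA was taken in bulk, fewer cells with a transcript and less transcript per cell cannot be told apart.

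The genes of the set spanned a wide range of levels. In the vector libraries the mean was 54.5 ± 2.43 FPKM (SD, n = 2) for EGFR, 45.9 ± 4.43 for HBEGF, 34.2 ± 4.35 for MET and 26.6 ± 6.29 for NRG1. TGFA followed with 8.84 ± 5.41 FPKM, AREG with 8.83 ± 3.57, EREG with 4.75 ± 0.283 and ERBB3 with 2.61 ± 0.339. BTC with 0.34 ± 0.085 and EPGN with 0.185 ± 0.035 FPKM were the lowest. TGFA and AREG were the neighbours in this order that differed by less than their SDs. In the DKO libraries EGFR, HBEGF, MET and NRG1 again came first, at 55.1, 46.4, 33.8 and 26.5 FPKM.

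**Figure D1:**
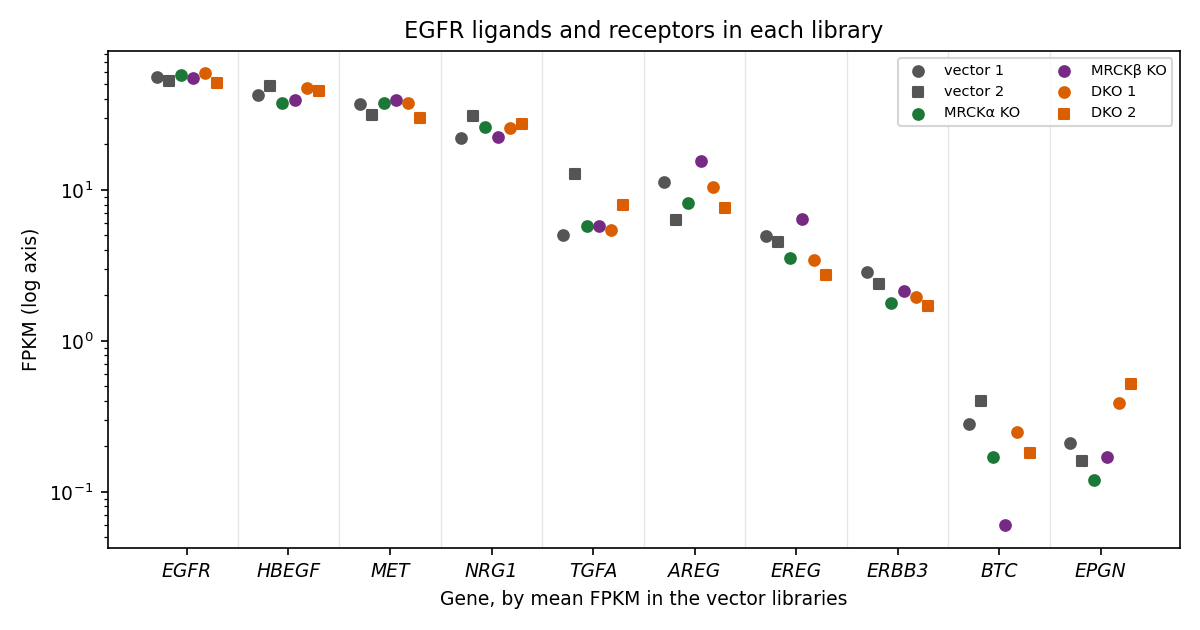
FPKM (log axis) of each of the 10 genes in each of the 6 libraries, ordered by the mean of the vector libraries. EGFR lay between 51.0 and 59.2 FPKM in all 6 libraries, whereas TGFA ranged from 5.01 to 12.7 FPKM, with vector 2 the highest.

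The plot of levels by library shows that the abundant genes varied least. The highest library was 1.16 times the lowest for EGFR, 1.31 for HBEGF, 1.32 for MET and 1.40 for NRG1. It was 1.69 times for ERBB3, 2.34 for EREG, 2.46 for AREG and 2.53 for TGFA. The ratios of 4.33 for EPGN and 6.67 for BTC rest on 14 counts or fewer per library.

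DKO against vector is the comparison with replicates on both sides, and 9 of the 10 genes had enough counts to be tested. With the edgeR quasi-likelihood test and Benjamini-Hochberg adjustment over all 13123 tested genes, 0 of the 9 passed an adjusted p of 0.05, and so did 0 of all tested genes (0.0%). DESeq2 called 4 genes, limma 0 and edgeR with a block for the replicate number, a pairing that the labels do not give, 5. None of them was in the set. With that block 796 genes had an unadjusted p under 0.05 in edgeR, 397 higher and 399 lower in DKO. Without the block, at an unadjusted p under 0.05, edgeR gave 1 of the 9, EREG, against 313 of all tested genes (2.39%), 179 with a higher and 134 with a lower value in DKO. That count was 1154 without vector 1, 805 without vector 2 and 135 without DKO 2, it was 337 without DKO 1 but with 111 higher and 226 lower, and the adjusted test called 1 gene without vector 1 and 5 without DKO 1. Both DKO libraries lay below both vector libraries for 1 of the 9, EREG, against 14.2% of all tested genes. They lay above both for EPGN, against 14.8%, but EPGN passed the filter on low counts only through the DKO libraries, so nothing is read from its side.

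AREG, EREG, EPGN and BTC are neighbours. On GRCh38 in GENCODE v29, EPGN lies at chr4:74308473-74315307, EREG at chr4:74365143-74388751 and AREG at chr4:74445134-74455009, all on the plus strand, and BTC lies at chr4:74744759-74794686 on the minus strand. They are the 4 protein-coding genes of a stretch of 486.2 kb, and the gap between EREG and AREG is 56383 bases. Elsewhere, EGFR lies at chr7:55019021-55211628 with the antisense gene EGFR-AS1, MET at chr7:116672390-116798386, ERBB3 at chr12:56076799-56103505, HBEGF at chr5:140332843-140346631 on the minus strand and TGFA at chr2:70447280-70554193 on the minus strand.

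The neighbours differ in level and in order across libraries, so the bases just before their starts are shown for comparison. Each sequence is the 140 bases that end right before the RefSeq start (GRCh38.p14), read 5′ to 3′ on the gene's own strand, at chr4:74308330-74308469 for EPGN, chr4:74365005-74365144 for EREG, chr4:74444996-74445135 for AREG and chr4:74794524-74794663 on the minus strand for BTC. The RefSeq starts differ from the GENCODE positions above. The BTC sequence therefore lies inside the GENCODE span of BTC, and those of EREG and AREG end just inside theirs. Capitals mark the letters TGACG (the core of the cyclic AMP response element, CRE) in EPGN and EREG, the full CRE TGACGTCA and then a GC box (GGGCGG on the other strand) in AREG, and matches to the NF-κB motif in BTC.
EPGN: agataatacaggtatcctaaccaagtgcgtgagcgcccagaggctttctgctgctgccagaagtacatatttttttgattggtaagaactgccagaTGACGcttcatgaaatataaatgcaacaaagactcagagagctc
EREG: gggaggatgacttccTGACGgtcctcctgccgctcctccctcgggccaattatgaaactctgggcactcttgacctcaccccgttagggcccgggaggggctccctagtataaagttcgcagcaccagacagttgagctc
AREG: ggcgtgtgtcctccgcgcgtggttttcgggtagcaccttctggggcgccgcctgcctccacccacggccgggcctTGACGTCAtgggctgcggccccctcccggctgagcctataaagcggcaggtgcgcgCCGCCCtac
BTC: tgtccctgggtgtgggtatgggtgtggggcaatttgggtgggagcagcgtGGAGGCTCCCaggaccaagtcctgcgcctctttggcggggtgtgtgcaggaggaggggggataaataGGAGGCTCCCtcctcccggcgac

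Motifs were searched on both strands in the 250 bases before each start, in 10 windows of 8 genes of the set, since EGFR and TGFA have more than 1 window and ERBB3 and NRG1 are not listed. The full CRE was in 1 of the 10 windows, that of AREG, 65 bases before the start, and in 1.65% of all 35116 windows. Its core TGACG, which the full CRE contains, was in 4 of the 10, those of AREG, EREG, EPGN and TGFA, and in 21.2% of all windows. An AP-1 motif (TGANTCA) was in 1 window, of EGFR, and in 6.57% of all windows, and an NF-κB motif was in 2, of TGFA and BTC, and in 9.96%. A GC box (GGGCGG) was in 5 of the 10 and in 42.6% of all windows. The EGR1 motif GCGNGGGCG, in 8.41% of all windows, and the CArG box, in 1.16%, had no match in these 10 windows. A match is a run of letters and not a site shown to be bound.

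EREG (gene ID 2069) encodes epiregulin, a ligand of EGFR and ERBB4. Its level was 4.95 FPKM in vector 1 and 4.55 in vector 2, 3.54 in MRCKα KO and 6.42 in MRCKβ KO, and 3.42 in DKO 1 and 2.75 in DKO 2. Both DKO libraries and MRCKα KO were below both vector libraries, and MRCKβ KO was above them. In DKO the value was 1.56-fold lower, with a log2 fold change of -0.64 ± 0.19 (SE, 95% interval -1.11 to -0.17), an unadjusted p of 0.0155 and an adjusted p of 1.00 in the edgeR quasi-likelihood test with Benjamini-Hochberg adjustment. The log2 value ran from -0.82 without DKO 1 to -0.49 without DKO 2, and without DKO 2 the unadjusted p was 0.118 in the same edgeR test. The other members whose DKO and vector libraries did not overlap by counts, EPGN and BTC, had 14 counts or fewer in each library.

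AREG (gene ID 374) encodes amphiregulin, an EGFR ligand. It was at 11.4 FPKM in vector 1 and 6.30 in vector 2, 8.18 in MRCKα KO and 15.5 in MRCKβ KO, and 10.5 in DKO 1 and 7.55 in DKO 2. MRCKβ KO was the highest library and vector 2 the lowest, and the DKO libraries lay between the vector libraries, which were themselves 1.80-fold apart. The log2 fold change in DKO was 0.01 ± 0.34 (SE, 95% interval -0.82 to 0.85), and it was 0.50 without vector 1, -0.35 without vector 2 and -0.25 without DKO 1. Unlike EREG, its neighbour, AREG thus had no DKO library outside the vector range.

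EPGN (gene ID 255324) encodes epigen, a low-affinity EGFR ligand. Its counts were 6 in vector 1 and 4 in vector 2, 3 in MRCKα KO and 4 in MRCKβ KO, and 10 in DKO 1 and 14 in DKO 2. Both DKO libraries were the highest, and so the gene had to be higher in DKO to be tested. The log2 fold change was 1.23 ± 0.63 (SE, 95% interval -0.29 to 2.74), with an unadjusted p of 0.0964 and an adjusted p of 1.00 in the edgeR quasi-likelihood test with Benjamini-Hochberg adjustment. BTC (gene ID 685) encodes betacellulin, a ligand of EGFR and ERBB4, and was not tested. Its counts were 8, 11, 5, 1, 7 and 4 in the same order, and both DKO libraries were below both vector libraries by few reads.

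HBEGF (gene ID 1839) encodes heparin-binding EGF-like growth factor, the most abundant ligand of the set. It was at 42.7 FPKM in vector 1 and 49.0 in vector 2, 37.5 in MRCKα KO and 39.2 in MRCKβ KO, and 47.4 in DKO 1 and 45.4 in DKO 2. Both single knockout libraries were below both vector libraries, while the DKO libraries lay between them. The log2 fold change in DKO was 0.00 ± 0.13 (SE, 95% interval -0.31 to 0.31).

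TGFA (gene ID 7039) encodes transforming growth factor alpha, another EGFR ligand. It was at 5.01 FPKM in vector 1 and 12.7 in vector 2, 5.75 in MRCKα KO and 5.80 in MRCKβ KO, and 5.44 in DKO 1 and 7.94 in DKO 2. Vector 2 was 2.53-fold above vector 1 and above every other library, DKO 2 came next, and the remaining 4 libraries were close to each other. In DKO the log2 fold change was -0.42 ± 0.42 (SE, 95% interval -1.44 to 0.61), and it was -0.94 without vector 1 and 0.40 without vector 2. NRG1 (gene ID 3084) encodes neuregulin, a ligand of ERBB3 and ERBB4, and had a similar order, with 22.1, 31.0, 26.2, 22.4, 25.9 and 27.2 FPKM. Vector 2 was again the highest library, and the log2 fold change in DKO was -0.07 ± 0.20 (SE), or -0.32 without vector 1 and 0.24 without vector 2.

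EGFR (gene ID 1956), the receptor of most of these ligands, was the steadiest gene of the set. It was at 56.2 FPKM in vector 1 and 52.8 in vector 2, 58.1 in MRCKα KO and 54.8 in MRCKβ KO, and 59.2 in DKO 1 and 51.0 in DKO 2. The DKO libraries were the highest and the lowest of all 6, so the groups overlapped. Its log2 fold change in DKO was 0.00 ± 0.13 (SE, 95% interval -0.31 to 0.31). MET (gene ID 4233), the receptor of hepatocyte growth factor, was at 37.3, 31.1, 37.9, 39.5, 37.7 and 30.0 FPKM in the same order. Vector 2 and DKO 2 were the lowest libraries, and the log2 fold change in DKO was -0.04 ± 0.17 (SE, 95% interval -0.45 to 0.36), or 0.11 without vector 1 and 0.12 without DKO 2.

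ERBB3 (gene ID 2065), a receptor with little kinase activity of its own that pairs with ERBB2 or EGFR, gave different orders in counts and in FPKM. Its counts were 72 in vector 1 and 46 in vector 2, 57 in MRCKα KO and 91 in MRCKβ KO, and 75 in DKO 1 and 56 in DKO 2. Its FPKM values in the same order were 2.85, 2.37, 1.77, 2.15, 1.95 and 1.69. By counts the DKO libraries overlapped the vector libraries, and by FPKM both DKO libraries and both single knockout libraries were below both vector libraries. The transcript length that the deposited files assign to ERBB3, a mean over the isoforms estimated in each library, was 2357 bases in vector 1 and 1892 in vector 2, 3115 in MRCKα KO and 3943 in MRCKβ KO, and 3651 in DKO 1 and 3155 in DKO 2, and it divides the FPKM. With the median length of 3135 bases in every library, an alternative added after seeing the data, the values were 2.143, 1.43, 1.77, 2.72, 2.28 and 1.71 FPKM and the groups overlapped. The log2 fold change of the counts in DKO was 0.14 ± 0.35 (SE, 95% interval -0.71 to 0.99), against -0.52 for the averaged FPKM. It was -0.13 without vector 2 and -0.10 without DKO 1. The isoforms themselves were not measured separately in the files.

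**Figure D2:**
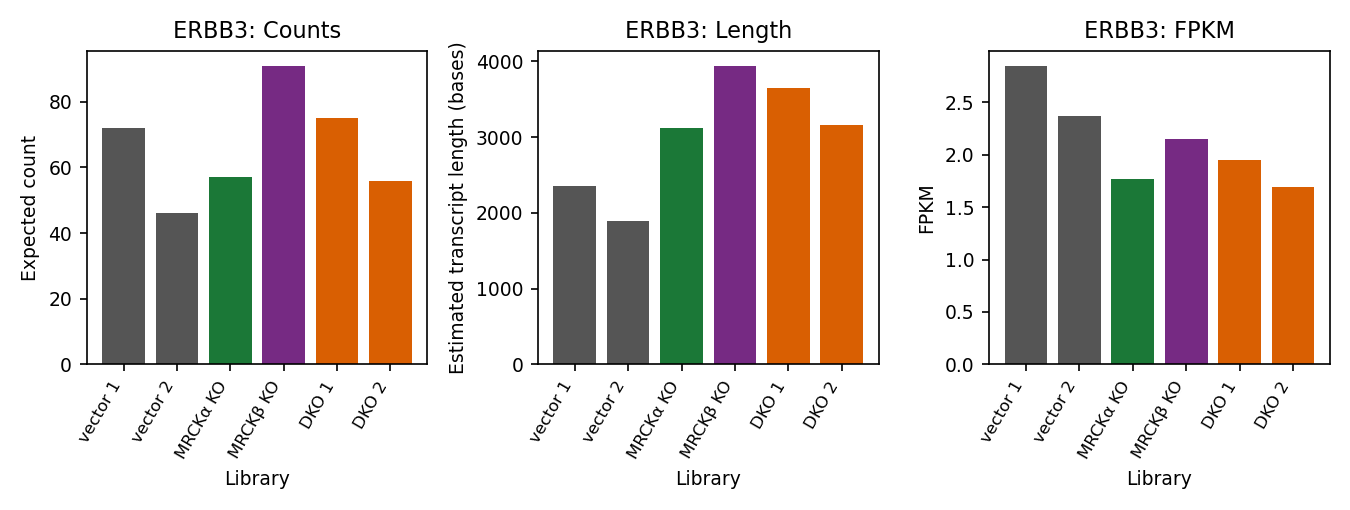
Expected count, estimated transcript length in bases and FPKM of ERBB3 in each of the 6 libraries (1 bar per library). The vector libraries have the shortest lengths, 2357 and 1892 bases, and the highest FPKM values, 2.85 and 2.37, while the highest count, 91, is in MRCKβ KO.

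The bars for ERBB3 set the count beside the length, and vector 2 holds the lowest of both. Of the other members, AREG, EREG and HBEGF have a single length in all libraries (1290, 4628 and 2381 bases), so their FPKM values follow their counts.

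**Figure D3:**
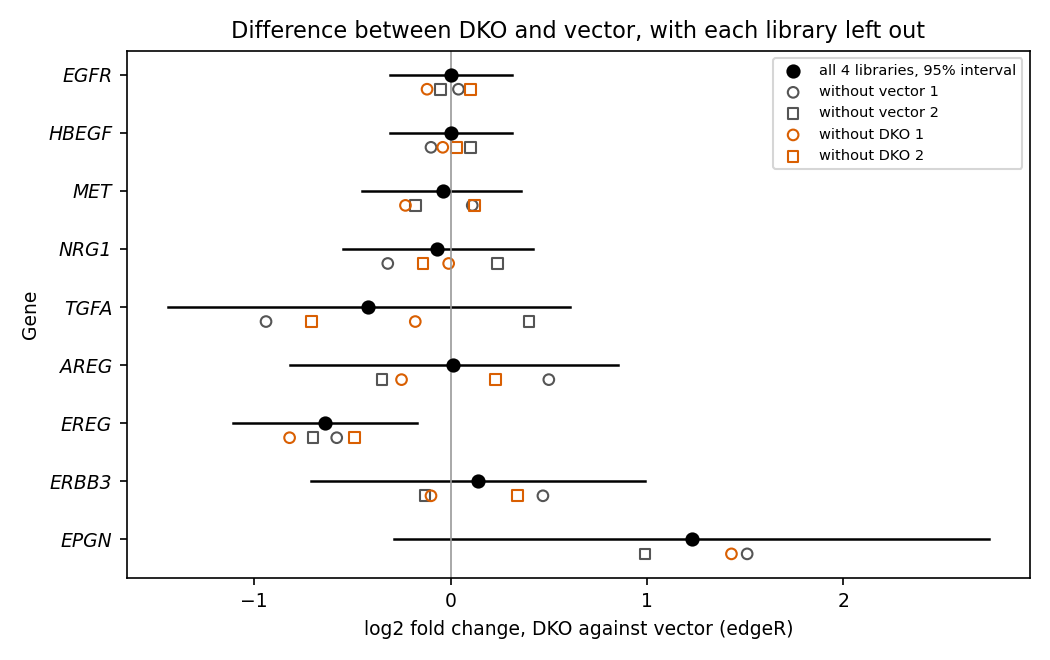
Log2 fold change of DKO over vector from edgeR for the 9 tested genes, with the 95% interval as a line and the value without each library as an open symbol. The interval of EREG, from -1.11 to -0.17, is the 1 that leaves out 0, and TGFA moves from -0.94 without vector 1 to 0.40 without vector 2.

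The plot with each library left out shows which values rest on a vector library. The sign turned for CDC42BPA and for ERBB3, MET, AREG, TGFA and NRG1, for which the values without each library concerned are given above, and for EGFR and HBEGF, whose values of 0.00 have no clear sign. EREG was below 0 in each such fit, and the sign of EPGN says nothing here because the filter fixed it. HBEGF ranged from -0.10 without vector 1 to 0.10 without vector 2, and EGFR from -0.12 without DKO 1 to 0.10 without DKO 2.

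Each single knockout has 1 library, so its ratios carry no p and cannot be checked in a replicate, and the intervals below (exact binomial, 95%) cover counting error only. All 3 comparisons share the vector libraries. By counts, MRCKα KO was above both vector libraries for 1 of the 10 genes, against 29.7% of all tested genes, and below both for 4, against 29.4%. MRCKβ KO was above both vector libraries for 4 genes, against 29.7%, and below both for 3, against 29.4%. The gene above in MRCKα KO was EGFR, and the 4 above in MRCKβ KO were AREG, EREG, ERBB3 and MET. Those below were HBEGF, EPGN and BTC in both and EREG in MRCKα KO alone, but EPGN and BTC rest on 1 to 5 counts in these libraries, and BTC is not among the tested genes that give the shares.

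AREG in MRCKβ KO was 1.75-fold above the vector libraries together, a log2 ratio of 0.80 (0.53 to 1.08), with 0.45 against vector 1 and 1.29 against vector 2. EREG there was 1.34-fold above, a log2 ratio of 0.43 (0.22 to 0.63), with 0.37 and 0.48 against the vector libraries singly. Both ligands were above each vector library, with AREG farther above vector 2 than above vector 1. ERBB3 gave 0.60 (0.19 to 1.01) by counts, with 0.34 and 0.94 against the vector libraries singly, but -0.28 by FPKM.

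MRCKα KO had a log2 ratio of -0.45 (-0.71 to -0.19) for EREG, with -0.50 against vector 1 and -0.39 against vector 2. For HBEGF it was -0.31 (-0.42 to -0.20), and MRCKβ KO gave -0.23 (-0.34 to -0.12). Against vector 1 and vector 2 singly, HBEGF gave -0.20 and -0.41 in MRCKα KO. In MRCKβ KO it gave -0.13 (-0.25 to 0.00) against vector 1 and -0.33 against vector 2. EREG therefore lay below vector in MRCKα KO and above it in MRCKβ KO, and that difference was not tested. TGFA gave -0.63 in MRCKα KO and -0.60 in MRCKβ KO, but 0.18 and 0.22 against vector 1 and -1.16 and -1.13 against vector 2, so its sign depends on the vector library. NRG1 turned in the same way, with 0.10 and 0.03 against vector 1 and -0.46 and -0.53 against vector 2.

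The fold-change rule of the study's methods takes a log2 ratio of averaged FPKM of at least 1 or at most -1, after leaving out genes more than 2-fold apart between replicates. The study also left out poorly expressed genes, by a limit that its text does not give, and that step was not applied here. The comparison of replicates left out TGFA, because of the vector libraries, and kept the other 9 genes of the set. In DKO 1 of the 9 was past the rule, EPGN with a log2 ratio of 1.30, against 218 of 12254 genes (1.78%). In MRCKα KO it was BTC, whose ratio lay exactly at the lower limit, against 569 of 12864 genes (4.42%), and in MRCKβ KO it was BTC at -2.50, against 455 of 12903 genes (3.53%). The study itself lists BTC at -2.50 among the genes most reduced in MRCKβ KO. The BTC values rest on 5 counts in MRCKα KO and 1 count in MRCKβ KO against 19 in the vector libraries together, and the log2 ratio of the counts in MRCKβ KO was -3.27 (-8.65 to -0.62). With a mean FPKM of at least 1 required in either group, 0 genes of the set were past the rule in any of the 3 comparisons. Against vector 2 alone, where no replicate filter applies and TGFA is taken in, AREG was past the rule in MRCKβ KO and TGFA in both single knockouts. Against vector 1 alone neither was.

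Across the 6 libraries, some members of the set followed each other, which is given as a description without a p because libraries of a group are not independent of it. Pearson's r of log2 scaled counts was 0.98 for ERBB3 with AREG and 0.96 for TGFA with NRG1, and it was -0.81 for AREG with NRG1. AREG and EREG, the neighbours, gave 0.63. The genes most like AREG among 1386 candidates were ACSF2 (r = 0.992), CLDN7 (0.986) and SLC17A5 (0.985), and ACSF2 (0.993) was also the gene most like ERBB3. Those most like TGFA were LDOC1 (0.977), PRICKLE2 (0.976) and COL7A1 (0.975), and those most like NRG1 were IGFN1 (0.990), COL7A1 (0.988) and OSGIN1 (0.986).

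COL7A1 was at 1.5 FPKM in vector 1 and 14.1 in vector 2, 2.01 in MRCKα KO and 2.19 in MRCKβ KO, and 2.89 in DKO 1 and 4.83 in DKO 2, with the highest values in vector 2 and DKO 2 as for TGFA. CLDN7, an epithelial tight junction gene, was at 5.66, 2.40, 4.41, 9.51, 5.6 and 3.02 FPKM in the same order, lowest in vector 2 and highest in MRCKβ KO as for AREG. For MET the most alike genes were SLC39A6 (0.998), SERPINB1 (0.996) and SH2D3A (0.996), and for EREG they were RAB31 (0.971), LCA5 (0.968) and ADAM8 (0.962). RAB31 was at 6.68, 5.6, 4.33, 7.84, 5.0 and 3.37 FPKM and so, like EREG, was highest in MRCKβ KO and lowest in DKO 2. EGFR varied with an SD of only 0.08 on the log2 scale, and the genes most like it were CSF2RA (0.976), DOCK2 (0.974) and MAGEA3 (0.967). All these genes were picked for the highest r among 1386 candidates over 6 libraries, so a shared order follows from that choice.

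The pathway was read from 8 lists with 116 genes, the 10 members included, of which 110 were in the table and 99, among them the 9 tested members, were tested. Of the 99, 47 had a higher and 52 a lower value in DKO, with a median log2 fold change of -0.01, against 6465 and 6658 of all 13123 tested genes and a median of 0.00. At an unadjusted p under 0.05 there were 2 higher and 3 lower, EREG included, among the 99, against 2.39% of all tested genes, and with the edgeR quasi-likelihood test and Benjamini-Hochberg adjustment 0 passed. Both DKO libraries were above both vector libraries for 11 of the 99, against 14.8% of all tested genes, and below them for 14, against 14.2%.

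**Figure D4:**
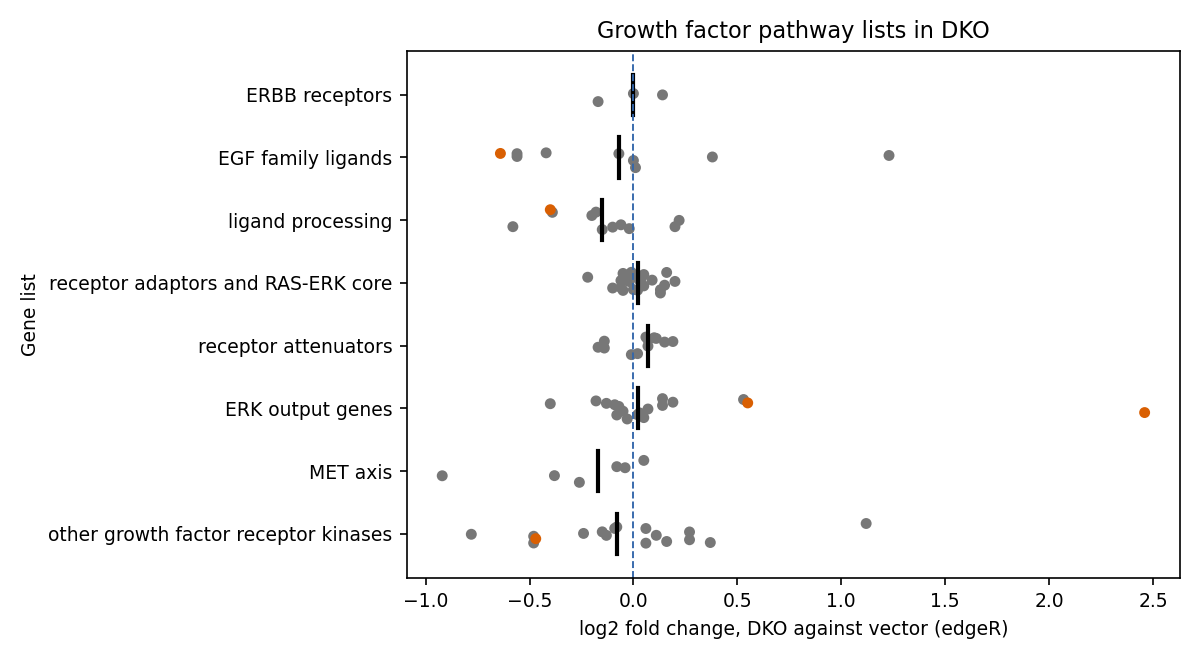
Log2 fold change of DKO over vector from edgeR for each tested gene of 8 lists (points, orange for an unadjusted p under 0.05), with the median of each list as a black line and that of all tested genes as a dashed line. The list medians lie between -0.17 and 0.07, and EGR1 at 2.46 is the point farthest from 0.

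In the plot of the lists, the 3 tested ERBB receptors had a median of 0.00 and the 9 tested EGF family ligands one of -0.07, with 3 ligands higher, among them EPGN, whose direction the filter fixed, and 6 lower, among them HBEGF at 0.00, which was 0.02 with scaling by library size alone. ERBB2, the partner of ERBB3, was at 16.2, 13.8, 13.2, 15.4, 14.3 and 13.6 FPKM from vector 1 to DKO 2 in the order used above, with a log2 fold change of -0.17 ± 0.14 (SE), or -0.06 without vector 1. ERBB4 had at most 2 counts in any library, so no fold is given. EGF, the namesake ligand, was at 1.21, 2.68, 0.94, 1.08, 1.14 and 1.16 FPKM, highest in vector 2 like TGFA, and its log2 fold change of -0.56 ± 0.37 (SE) was -0.02 without vector 2. Between the vector libraries the median absolute log2 difference was 0.56 over the 9 ligands and 0.24 over all tested genes, a difference that was not tested.

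Of the 11 ligand-processing genes, which cut, carry or mature the ligand precursors, 2 had a higher and 9 a lower value in DKO, with a median of -0.15. FRMD8, which stabilizes the complex of the sheddase ADAM17 with iRhom, was at 7.95 FPKM in vector 1 and 7.76 in vector 2, 6.38 in MRCKα KO and 6.62 in MRCKβ KO, and 6.04 in DKO 1 and 6.06 in DKO 2. All 4 edited libraries were below both vector libraries. Its log2 fold change in DKO was -0.40 ± 0.15 (SE), with an unadjusted p of 0.0338 and an adjusted p of 1.00 in the edgeR quasi-likelihood test with Benjamini-Hochberg adjustment. The other genes at the ends of the list were RHBDF2, which encodes an iRhom, at 0.22, the convertase gene FURIN at 0.20 and the protease gene ADAM12 at -0.58. RHBDF2 was 0.12 without vector 1, FURIN was -0.05 without vector 2 and ADAM12 was -0.19 without vector 2.

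The 23 adaptors and members of the RAS-ERK core had a median of 0.02, with 14 higher and 9 lower. Their ends were PIK3R1 at 0.20 and BRAF at 0.16, and PIK3CB at -0.22 and GAB1 at -0.10. BRAF was 0.01 and PIK3CB -0.13 without DKO 2, PIK3R1 was -0.09 without vector 1 and -0.19 without DKO 2, and GAB1 was 0.04 without vector 2. The 12 tested genes of the attenuator list, most of which limit receptor signalling, had a median of 0.07, with 8 higher and 4 lower. ERRFI1, an inhibitor of the EGFR kinase, was at 166, 78.6, 119, 208, 153 and 122 FPKM in the same order of libraries, lowest in vector 2 and highest in MRCKβ KO as for AREG. Its log2 fold change in DKO was 0.15, and it was -0.28 without vector 2 and -0.02 without DKO 1. LRIG1, which promotes loss of the receptors, was at 2.54, 6.72, 2.58, 3.56, 4.10 and 6.53 FPKM, highest in vector 2 and DKO 2, and its log2 fold change of 0.19 was -0.36 without vector 1 and -0.20 without DKO 2. LRIG3 at -0.17, or -0.07 without vector 2, and PTPRJ at -0.14, or 0.09 without vector 1, were the lowest.

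Of 18 genes that are transcribed when ERK is active, 10 had a higher and 8 a lower value in DKO, with a median of 0.02, and 2 of the higher ones had an unadjusted p under 0.05, as had 179 of all 13123 tested genes in that direction. EGR1, an immediate early transcription factor, was at 12.5 FPKM in vector 1 and 6.81 in vector 2, 23.2 in MRCKα KO and 18.1 in MRCKβ KO, and 37.5 in DKO 1 and 70.8 in DKO 2. All 4 edited libraries were above both vector libraries, and the DKO libraries were the highest. Its log2 fold change in DKO was 2.46 ± 0.39 (SE), with an unadjusted p of 0.000586 and an adjusted p of 1.00 in the edgeR quasi-likelihood test with Benjamini-Hochberg adjustment. The value for EGR1 was 2.97 without vector 1, 2.10 without vector 2 and 1.94 without DKO 2, none of which passed that test, and 2.85 without DKO 1, which did and which leaves DKO 2, with the higher value, as the lone DKO library. IER3, another early gene, was at 449, 372, 395, 543, 600 and 620 FPKM in the same order, with both DKO libraries above the rest. Its log2 fold change was 0.55 ± 0.14 (SE), with an unadjusted p of 0.00599 in the same edgeR test. The feedback inhibitor SPRY1 at -0.40, or 0.71 without vector 1, and the cyclin gene CCND1 at -0.18, or -0.10 without DKO 1, were the lowest.

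Around MET, 6 of 9 genes were tested, with 1 higher, 5 lower and a median of -0.17. Of all tested genes 49.3% were higher. Among the 6, ST14, SPINT1, MST1 and MST1R had 34 counts or fewer in each library, so the split rests largely on few reads. HGF, the ligand of MET, was not in the table. SPINT2, an inhibitor of the proteases that activate that ligand, was at 113, 98.1, 87.3, 107, 94.7 and 84.2 FPKM in the same order, with a log2 fold change of -0.26 ± 0.13 (SE), or -0.16 without vector 1. Its DKO libraries were both below both vector libraries. The 17 tested kinases among 27 other growth factor receptors had a median of -0.08, with 8 higher and 9 lower. ROR1 was at 8.29, 7.08, 7.32, 7.73, 6.75 and 6.08 FPKM, with both DKO libraries the lowest and a log2 fold change of -0.47 ± 0.19 (SE, unadjusted p of 0.0439 in the edgeR test), or -0.28 without DKO 2. Its assigned transcript length was 4976 and 4964 bases in the vector libraries and 4709 and 3985 in the DKO libraries, and limma on FPKM gave -0.25 and -0.23 with 0.1 and 1 added. PDGFRB was at 5.90, 1.35, 2.19, 4.65, 3.15 and 1.14 FPKM, lowest in vector 2 and DKO 2, and its log2 fold change of -0.78 was 0.61 without vector 1. The highest values among genes with a mean count of at least 50 were those of KDR at 0.37, or 0.13 without vector 2, and INSR at 0.27, or 0.00 without vector 2 and 0.06 without DKO 2.

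**Figure D5:**
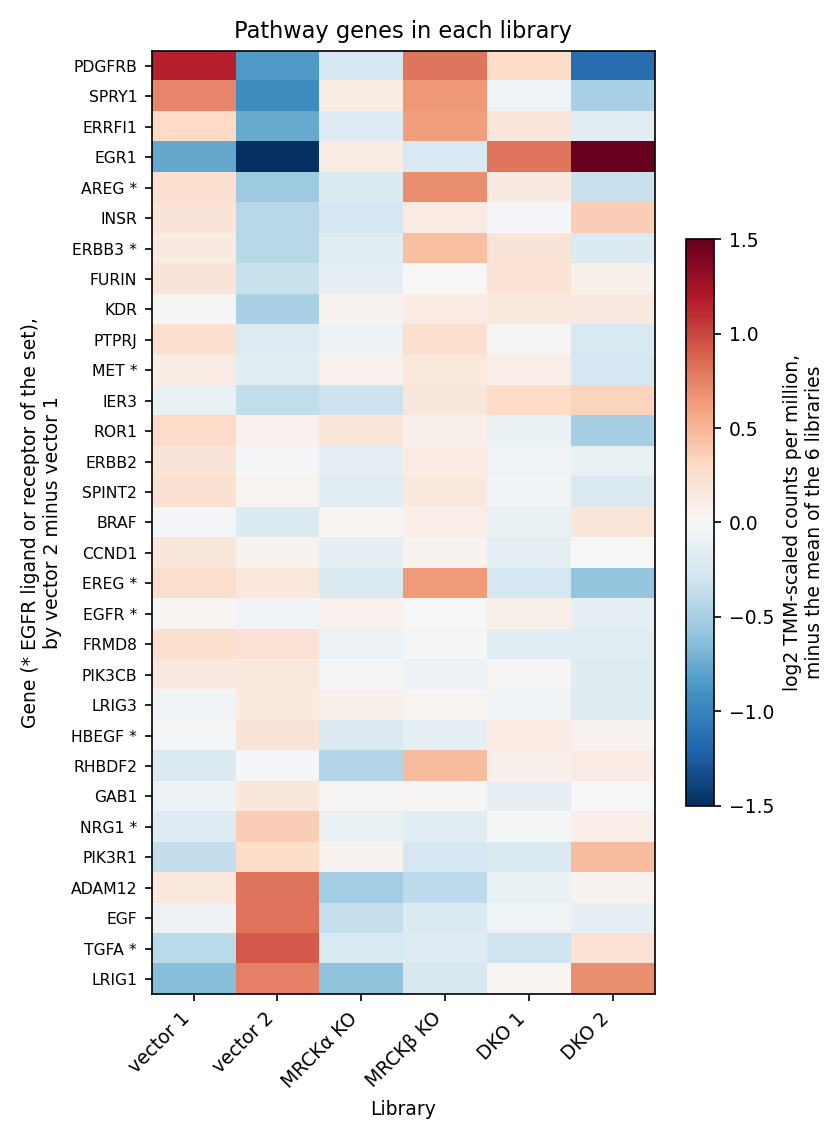
Log2 TMM-scaled counts of the tested members with a mean count of at least 50 (asterisks) and of pathway genes, minus the mean of the 6 libraries (blue low, red high), ordered by vector 2 minus vector 1. TGFA, LRIG1 and EGF stand at the end that is high in vector 2, and PDGFRB, SPRY1 and ERRFI1 at the end that is low there.

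The map of pathway genes shows the vector libraries as opposites for the genes at its ends. EREG and FRMD8 lie near its middle, where the vector libraries are alike, and both are lower in DKO 1 and DKO 2 than in either vector library. EGR1 combines a low value in vector 2 with high values in both DKO libraries.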

How the data were processed

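RNA of 6 MDA-MB-231 libraries was sequenced by BGI for the authors, whose notes name HISAT, Bowtie2, RSEM and GRCh38.p11 without versions. The deposited expected counts are not normalized, and 61.0% to 61.8% of them are whole in each library, with no decimals as deposited. The deposited FPKM values are rounded to 2 decimals. The deposited length, in bases, is the mean transcript length of a gene in that library.

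Expected counts were rounded, filtered with filterByExpr, scaled by TMM and tested with the quasi-likelihood test of edgeR 4.0.16 in R 4.3.3 on the 4 vector and DKO libraries, with Benjamini-Hochberg adjustment over all 13123 tested genes and a threshold of 0.05. Errors are standard errors of the fit, and n = 2 for each of these groups. Single knockouts were compared by ratios of TMM-scaled counts with exact binomial (Clopper-Pearson) 95% intervals. The study's fold-change rule was applied to FPKM without its exclusion of poorly expressed genes, for which no limit is given. A count of 0 allows up to 3 counts at these depths, and no fold is given where both groups are at or under 3. Reads carry no molecular identifiers, so intervals cover counting error only.

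Alternatives were limma 3.58.1 with 0.1 or 1 added to FPKM before the log2, DESeq2 1.42.0, scaling by upper quartile or by library size alone, a fit of all 6 libraries, a replicate block, a filter of 10 counts in every library or none, other pseudocounts and filters of the fold-change rule, single vector libraries and each replicate left out. The members, gene lists and marker lists were chosen with earlier results of these data known. Named genes are the targeted genes, the members, in each list the 2 highest and 2 lowest fold changes in DKO among genes with a mean count of at least 50 and each list gene with an unadjusted p under 0.05, and the 3 genes most like each member with a mean count of at least 50, among genes of that mean count and an SD of at least 0.3 on the log2 scale. Some genes that the rule takes are not named. Genes outside this rule were named after their values were seen. Promoter sequences are from RefSeq (GRCh38.p14) and positions from GENCODE v29. Which guides made which library is not given by the labels.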

Additional observations from a re-analysis of the deposited data

How the results depend on the processing

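No member was called by an adjusted p under any alternative. The number of genes called among all tested, 0 with edgeR, was 4 with DESeq2, 5 with a replicate block and 0 to 5 when 1 library was left out. The labels give vector and DKO libraries a number and no pairing, and the difference between vector 1 and vector 2 correlated with that between DKO 1 and DKO 2 at 0.432 across 11055 genes. The block is an alternative because the pairing is not given, and with it 796 genes had an unadjusted p under 0.05, against 313 without it. The 1 member past the fold-change rule in DKO became 0 with FPKM + 0.1, with FPKM + 1 and where FPKM had to average at least 1. In MRCKα KO 1 became 0 with each of these, 0 with vector 1 alone, 2 with vector 2 alone and 0 with both a fixed transcript length and no replicate filter, which was chosen after seeing the data. In MRCKβ KO 1 became 0 with FPKM + 1 and with that minimum, and 3 with vector 2 alone. A single vector library also leaves no comparison of vector replicates, so these settings changed 2 choices and take in TGFA. With both vector libraries and no replicate filter the number was 1 in MRCKα KO and 1 in MRCKβ KO.

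The log2 fold change in DKO turned for ERBB3 with limma, to -0.49 on log2(FPKM + 0.1) and -0.35 on log2(FPKM + 1), which divide by the library's own length, and for NRG1, to 0.02 in both limma fits; the cause for NRG1 was not tested. With 1 library left out it ranged from -0.46 to 0.21 for CDC42BPA, -0.13 to 0.47 for ERBB3, -0.23 to 0.12 for MET, -0.35 to 0.50 for AREG, -0.94 to 0.40 for TGFA and -0.32 to 0.24 for NRG1. Among pathway genes it ranged from -0.05 to 0.49 for FURIN, -0.19 to 0.56 for PIK3R1, -0.22 to 0.04 for GAB1, -0.28 to 0.78 for ERRFI1, -0.36 to 1.07 for LRIG1, -0.35 to 0.09 for PTPRJ, -1.01 to 0.71 for SPRY1 and -1.71 to 0.61 for PDGFRB. In these fits the lone library is assumed to vary like the other group. EREG kept its sign in all 13 alternatives, from -0.82 to -0.49. EPGN had no value where the filter removed it. With 2 libraries a group and a vector pair that stands apart, the size of a difference below the intervals given cannot be read, and counts under 15 limit BTC and EPGN.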

Other observations

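AXL and IGF1R, receptor kinases of the list of other growth factor receptors, were chosen after their values were seen. AXL was at 271 FPKM in vector 1 and 367 in vector 2, 237 in MRCKα KO and 267 in MRCKβ KO, and 265 in DKO 1 and 284 in DKO 2, above EGFR and MET in each library. IGF1R was at 10.02, 4.79, 7.37, 8.95, 9.18 and 6.49 FPKM in the same order, lowest in vector 2 and DKO 2, as MET was.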
